A study of Mus musculus with 40 samples.

Results

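The genes described are 9 ligands of the CC chemokine family, Ccl2, Ccl3, Ccl4, Ccl5, Ccl6, Ccl7, Ccl8, Ccl9 and Ccl11, together with the receptor Ccr2. They were taken by gene symbol from the fold change table that the authors deposited. This gave 12 probes for 10 genes, of 40628 probes and 29411 gene symbols on the array, with 2 probes each for Ccl7 and Ccr2. RNA labelled as subcutaneous SVCs, the stromal vascular cells of fat under the skin, was hybridised to 40 one-colour Agilent arrays. The animals were C57BL/6J mice, randomised at 3 to 4 weeks of age into 5 groups of 30. LFC mice ate a low-fat diet and HFC mice a high-fat diet. HF5, HF20 and HF75 mice ate the high-fat diet with 5, 20 or 75 µg of Kal-1, a botanical formulation, so that all dosed groups also carried the diet of HFC. LFC and HFC had 11 arrays each (days 1, 6, 10 and 14, and weeks 0, 3, 6, 9, 12, 15 and 18). By the methods weeks are counted from day 14, so week 3 is day 35, and day 14 and week 0 are 2 sets of arrays for 1 time, kept here as separate time labels. HF5 had 6 arrays (weeks 3 to 18), and HF20 and HF75 had 5 each (weeks 3 to 15). The labels do not say how many mice stand behind an array. The series text speaks of 3 biological replicates and the methods of 3 repeats of the experiment, whereas the files hold 1 array per diet and time label, and whether an array stands for 1 repeat or for a pool is not stated. With 1 array per diet at each time label, the time labels served as the replicates when 2 diets are compared, and that test measures the spread between them. Late against early and the pooled doses count single arrays instead.

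CC chemokines are small secreted proteins that guide leukocytes by binding G protein-coupled receptors. In expanding fat, Ccl2 and its relatives draw Ccr2-bearing monocytes out of the blood, and these become macrophages in the tissue. Stromal cells, macrophages, lymphocytes and adipocytes can each make some of these ligands, and many of the genes are switched on by NF-kappaB within hours of a stimulus.

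A level is the log2 of a probe's intensity over the 75th percentile of its own array, so that 0 marks this percentile. A spot that the scanner software did not call well above background was held at no less than the lowest level called so on that array, and a difference resting on it is a bound. Levels of the 10 genes are compared only for the same probe between arrays, and the brightest marker of a list is named only as the probe with the largest share of its sum. The series title names infiltrating macrophages, whereas the sample labels name stromal vascular cells. The summed level of 8 fibroblast markers, led by Dcn, was 2.90 at the lowest, 8.27 at the median and 9.44 at the highest over 38 arrays. The summed level of 11 macrophage markers, with Cd14 most often the brightest, was 2.38, 4.56 and 6.23. Markers of adipocytes (median 6.71, brightest Cfd), endothelial cells (5.14, Emcn), neutrophils (4.97, S100a9) and T cells (1.83, Cd3d) were also well above background on most arrays. The arrays are therefore described as mixed cells of fat and not as macrophages. In such bulk samples fewer cells of a kind and less RNA per cell cannot be told apart.

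Several arrays stood apart before any comparison was made. The LFC array of week 3 was dim, with a 75th percentile of 7.82 intensity units against 159.7 to 2161 on the other 37, and only 17.2% of its probes were well above background. The LFC array of day 14 had 9104 outlier spots of 43803, and Ccl3 had no value on it. The median Spearman rho with the other used arrays was 0.47 for this array and 0.45 for the LFC array of week 3. For every other used array it was 0.83 or more. The LFC array of week 18 lacked stromal signal: its fibroblast sum was 2.90, and Col3a1, Pdgfra, Dcn and Lum were not well above background. Its adipocyte sum was -1.15, its endothelial sum -1.01, its eosinophil sum 5.93 and its neutrophil sum 8.84. The week 9 titles hold the letters WS for every diet except HF75, with no explanation in the labels.

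**Figure D1:**
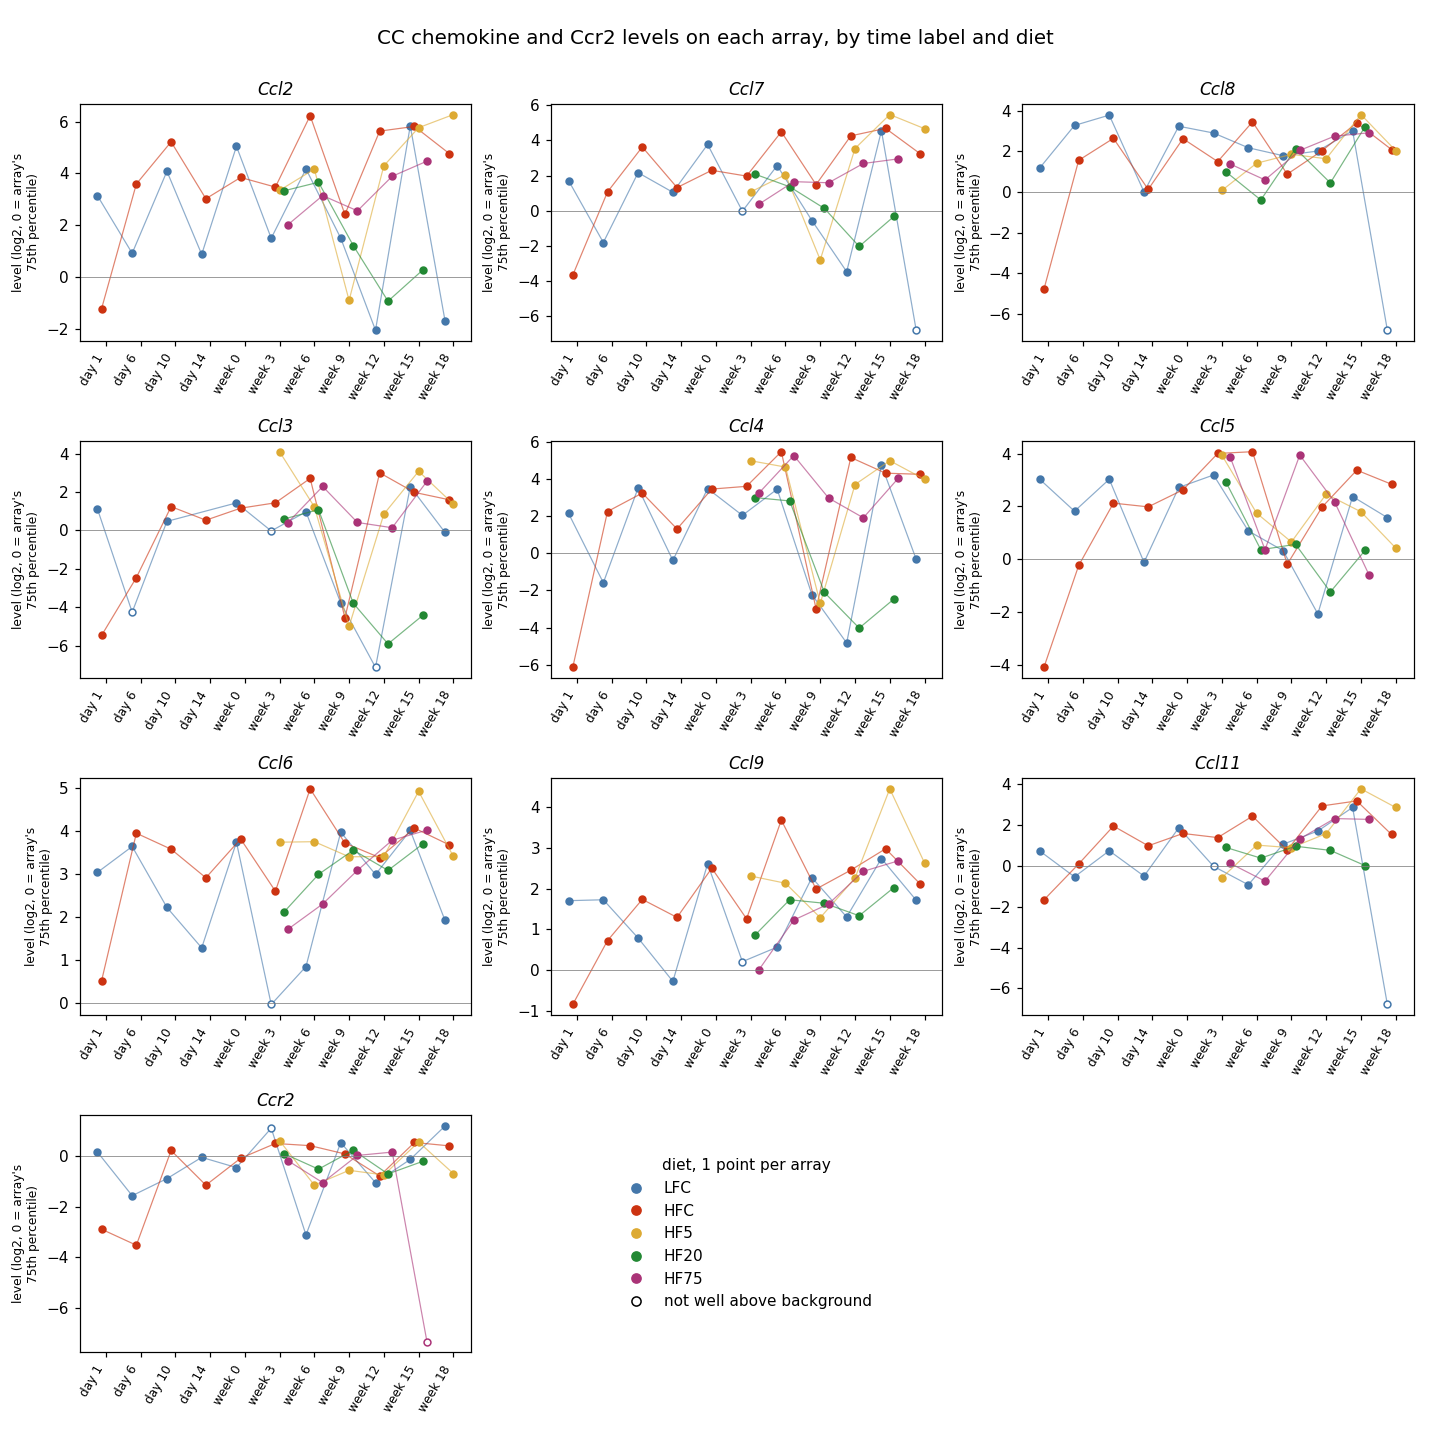
Levels of the 10 genes on each of 38 arrays (vertical axis, log2, 0 = the array's 75th percentile) by time label (horizontal axis), 1 point per array, coloured by diet. Open points were not well above background. Ccl2, Ccl7, Ccl3 and Ccl4 dip together on the HFC array of day 1 and on the LFC and HF20 arrays of week 12, where Ccl2 was -1.23, -2.06 and -0.94.

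Ccl2, the main attractant of Ccr2-bearing monocytes, was well above background on all 38 arrays. Its level in LFC was -2.06 at the lowest (week 12), 1.49 at the median and 5.83 at the highest (week 15). In HFC it was -1.23 (day 1), 3.84 and 6.23 (week 6), and in HF5 it was -0.91 (week 9), 4.23 and 6.27 (week 18). The HF5 value of week 15, 5.76, came from a saturated spot and may be too low. In HF20 the levels were 3.32, 3.65, 1.21, -0.94 and 0.26 at weeks 3, 6, 9, 12 and 15. In HF75 they were 2.01, 3.14, 2.55, 3.88 and 4.47. By median the diets ran HF5, HFC, HF75, LFC and HF20 from high to low. Every neighbouring pair overlapped, with SDs from 0.99 in HF75 to 2.59 in LFC. Here and for the genes below, the diet medians cover different time labels, since only LFC and HFC have arrays before week 3. Over weeks 3 to 18 the Ccl2 mean was 3.82 in HF5, with the saturated spot at its value, and 4.72 in HFC. By mean, HF5 thus lay under HFC over the weeks they share.

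Ccl7, which binds Ccr2 as Ccl2 does, followed Ccl2 from array to array. Its level in LFC was -6.78 at the lowest (week 18, not well above background), 1.05 at the median and 4.55 at the highest (week 15). In HFC it was -3.66 (day 1), 2.30 and 4.68 (week 15), and in HF5 it was -2.79 (week 9), 2.80 and 5.47 (week 15). The low points fell on the same arrays as those of Ccl2 in HFC, HF5 and HF20, and the diets overlapped again. In HF20 it was 2.08, 1.37, 0.13, -2.03 and -0.32 over weeks 3 to 15, and in HF75 it was 0.38, 1.65, 1.59, 2.69 and 2.95. Both Ccl7 probes ranked the arrays alike (Spearman rho 0.98 over 38 arrays).

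Ccl8, of the same group of monocyte attractants, did not follow this course. Its level in LFC was -6.78 at the lowest (week 18, not well above background), 2.17 at the median and 3.78 at the highest (day 10). The HFC levels were -4.78 (day 1), 2.03 and 3.45 (week 6), and in HF5 it was 0.08 (week 3), 1.74 and 3.81 (week 15). The HF20 levels were 0.99, -0.39, 2.13, 0.45 and 3.22 over weeks 3 to 15, and in HF75 it was 1.37, 0.60, 2.05, 2.74 and 2.91. Apart from 2 arrays, HFC day 1 and LFC week 18, its levels lay between -0.39 and 3.81, and the diet medians lay within 0.99 to 2.17.

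Ccl3 and Ccl4, inflammatory ligands made by activated macrophages and lymphocytes, had the largest SDs over all arrays (2.95 and 3.19), while Ccl7 had the widest range (12.25). Ccl3 in LFC was -7.12 at the lowest (week 12, not well above background), 0.23 at the median and 2.28 at the highest (week 15). Its HFC levels were -5.46 (day 1), 1.24 and 3.00 (week 12), and in HF5 it was -4.98 (week 9), 1.30 and 4.10 (week 3). Its HF20 levels were 0.59, 1.08, -3.78, -5.90 and -4.42 over weeks 3 to 15, and in HF75 it was 0.41, 2.29, 0.42, 0.14 and 2.56. The 3 late HF20 arrays therefore lay under all 5 HF75 arrays, whereas the HF20 arrays of weeks 3 and 6 lay among them.

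Ccl4 in LFC was -4.82 at the lowest (week 12), 2.04 at the median and 4.75 at the highest (week 15). In HFC it was -6.13 (day 1), 3.45 and 5.46 (week 6), and in HF5 it was -2.70 (week 9), 4.30 and 4.98 (week 15). In HF20 it was 2.99, 2.81, -2.11, -4.02 and -2.46 over weeks 3 to 15, and in HF75 it was 3.24, 5.25, 2.97, 1.91 and 4.02. At week 9 Ccl4 was -2.22 in LFC, -2.98 in HFC, -2.70 in HF5 and -2.11 in HF20, but 2.97 in HF75. Ccl3 at that time was -3.78, -4.54, -4.98 and -3.78 on the same 4 arrays and 0.42 in HF75.

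The week 9 gap between HF75 and the other 4 arrays came with a difference in cell markers. The T cell sum was 5.34 in HF75 and -0.21, -0.35, 0.57 and 0.53 in LFC, HFC, HF5 and HF20, with Cd3d or Lck the brightest. The sum of the 11 genes that respond to tissue digestion, such as Junb and Egr1, was 8.41 in HF75 and 4.12, 7.19, 5.04 and 4.54 in the others. The adipocyte sum was 7.86 in HF75 and 8.36, 8.02, 8.21 and 8.24 in the others. The HF75 array was also scanned on another date than the 4 others, which share 1 date. Diet, title, scan date and cell content cannot be told apart at this time label.

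Ccl5, a ligand of Ccr1 made in quantity by T cells and natural killer cells, kept its own course. Its level in LFC was -2.08 at the lowest (week 12), 1.82 at the median and 3.19 at the highest (week 3, the dim array). For HFC these were -4.11 (day 1), 2.12 and 4.07 (week 6), and in HF5 it was 0.42 (week 18), 1.77 and 3.94 (week 3). Over weeks 3 to 15 it was, in HF20, 2.91, 0.35, 0.56, -1.25 and 0.33, and in HF75 it was 3.86, 0.36, 3.94, 2.17 and -0.62. The week 3 arrays of all 5 diets, the dim LFC array among them, lay between 2.91 and 4.01. Those of week 9 lay between -0.20 and 0.65 except HF75 at 3.94.

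Ccl6 and Ccl9 are ligands of Ccr1 found in rodents and made steadily by myeloid cells, and they varied least among the ligands. Ccl6 in LFC was -0.02 at the lowest (week 3, not well above background), 3.00 at the median and 4.02 at the highest. In HFC it was 0.53 (day 1), 3.68 and 4.98 (week 6), and in HF5 it was 3.41, 3.58 and 4.93 (week 15). In HF20 it was 2.12, 3.00, 3.56, 3.09 and 3.70 over weeks 3 to 15, and in HF75 it was 1.72, 2.31, 3.09, 3.79 and 4.03. The HF75 levels were higher at each later week, and the SD over all 38 arrays was 1.12, against 3.19 for Ccl4.

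Ccl9 in LFC was -0.28 at the lowest (day 14), 1.70 at the median and 2.74 at the highest (week 15). Its values in HFC were -0.85 (day 1), 1.99 and 3.69 (week 6), and in HF5 it was 1.29 (week 9), 2.29 and 4.46 (week 15). Its values in HF20 were 0.85, 1.73, 1.64, 1.33 and 2.03 over weeks 3 to 15, and in HF75 it was 0.01, 1.23, 1.62, 2.43 and 2.68. For both genes the LFC, HF20 and HF75 medians lay under those of HFC and HF5, by less than the SD of HFC (1.13 for Ccl6 and 1.22 for Ccl9).

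Ccl11, or eotaxin, attracts eosinophils through Ccr3 and is made by stromal cells. Its level in LFC was -6.78 at the lowest (week 18, not well above background), 0.73 at the median and 2.86 at the highest (week 15). In HFC it was -1.67 (day 1), 1.54 and 3.18 (week 15), and in HF5 it was -0.58 (week 3), 1.30 and 3.77 (week 15). In HF20 it was 0.90, 0.38, 0.96, 0.76 and 0.01 over weeks 3 to 15, and in HF75 it was 0.12, -0.75, 1.32, 2.31 and 2.27. HF20 was the flattest, with an SD of 0.40 against 1.35 in HF75, and its range lay inside that of HFC. The LFC array of week 18 lacked Ccl11, Ccl7 and Ccl8 together with the fibroblast markers named above, while Ccl6, Ccl5 and Ccr2 were at 1.93, 1.57 and 1.18 on it.

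Ccr2, the receptor of Ccl2 and Ccl7 on inflammatory monocytes, ranked the arrays differently from these ligands. Its level in LFC was -3.12 at the lowest (week 6), -0.14 at the median and 1.18 at the highest (week 18). HFC arrays gave -3.52 (day 6), 0.07 and 0.53 (week 15), and in HF5 it was -1.15 (week 6), -0.63 and 0.60 (week 3). HF20 arrays gave 0.09, -0.53, 0.22, -0.71 and -0.22 over weeks 3 to 15, and in HF75 it was -0.19, -1.05, 0.02, 0.15 and -7.32 (week 15, not well above background). The diet medians lay between -0.63 and 0.07, closer together than the SD of HFC (1.41). The second Ccr2 probe was well above background on 28 of 38 arrays and ranked them differently (Spearman rho 0.23), and on the HF75 array of week 15 neither probe was well above background.

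The first question was whether the high-fat diet alone altered these genes. The HFC level of Ccl2 was higher than that of LFC at 8 of 11 time labels, and Ccl7 at 9. The differences for Ccl2 were -4.37, 2.68, 1.14, 2.15 and -1.20 at days 1, 6, 10 and 14 and week 0. They were 1.98, 2.06, 0.92, 7.69, -0.02 and 6.46 at weeks 3, 6, 9, 12, 15 and 18. Large values of either sign came from 3 time labels: day 1, when HFC was low, and weeks 12 and 18, when LFC was low. Of the 11 pairs, only that of day 1 had its arrays scanned on different dates. Diet and scan date cannot be told apart at that time label.

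The mean HFC minus LFC difference was 1.77 ± 0.86 (SE, 11 pairs) for Ccl2, 1.96 ± 1.07 for Ccl7, 1.36 ± 0.72 for Ccl11 and 1.26 ± 1.14 for Ccl4. It was 0.97 for Ccl3 (10 pairs, without day 14), 0.87 for Ccl6, 0.41 for Ccl9, 0.14 for Ccl5, -0.10 for Ccl8 and -0.18 for Ccr2. Of the 10 genes, 8 had a positive mean (9 with normexp background correction, which moved Ccl8 to 0.05) and the median was 0.92, against -0.08 over all 29267 probes tested. By limma none of the 10 passed an adjusted p of 0.05 (0.940 to 0.988), as with 0% of all probes. At an unadjusted p under 0.05 the 10 genes had 0 and all probes 820 (2.80%). The exact two-sided sign-flip p was 0.114 for Ccl2, 0.160 for Ccl7 and 0.0967 for Ccl11, where 11 pairs allow 0.000977 at the smallest.

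Single time labels weighed heavily on these means. Without day 1, all 10 genes were higher in HFC, with a median of 1.47, Ccl2 at 2.39 and Ccl4 at 2.21, and none passed the test. Leaving out week 12 instead lowered the median to 0.36, with Ccl2 at 1.18 and Ccl4 at 0.39, and put Ccl3 at -0.05 and Ccl5 at -0.25. Over all time labels left out in turn, 6 to 10 genes were higher in HFC. Leaving out week 18 put Ccl7 at 1.16 and Ccl11 at 0.67. With array weights Ccl2 was 0.59, Ccl7 0.82, Ccl11 0.64 and Ccl4 0.46. Without week 18, week 3 and day 14, a choice made after seeing the data, 8 genes were higher and the median was 0.46. The 4 pairs whose LFC and HFC arrays shared a slide (day 6 and weeks 0, 3 and 9) include the dim LFC array of week 3. They gave 6 genes higher and a median of 0.46, against -0.40 over the 30631 probes of that fit. The Ccl2 difference within those pairs was 2.68, -1.20, 1.98 and 0.92.

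The arrays with low chemokines also had low stress-response genes. The digestion-response sum was 4.59 on the HFC array of day 1 against 8.47 in LFC, and 3.80 on the LFC array of week 12 against 8.89 in HFC. At week 18 it was 6.67 in LFC and 9.02 in HFC. All 11 genes of this list were well above background on these arrays, Junb was the brightest, and in the fit 11 of 11 had a positive HFC minus LFC difference, with a median of 1.36. For fibroblast markers it was 8 of 8 (median 1.22), for endothelial markers 6 of 6 (1.09), for adipocyte markers 6 of 8 (0.86) and for macrophage markers 8 of 11 (0.20). Other lists had the opposite sign, with 5 of 5 epithelial (-1.32), 5 of 5 B cell (-0.55) and 6 of 7 neutrophil markers (-0.37) lower in HFC. None of them passed the test, and their part in the chemokine differences was not tested.

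**Figure D2:**
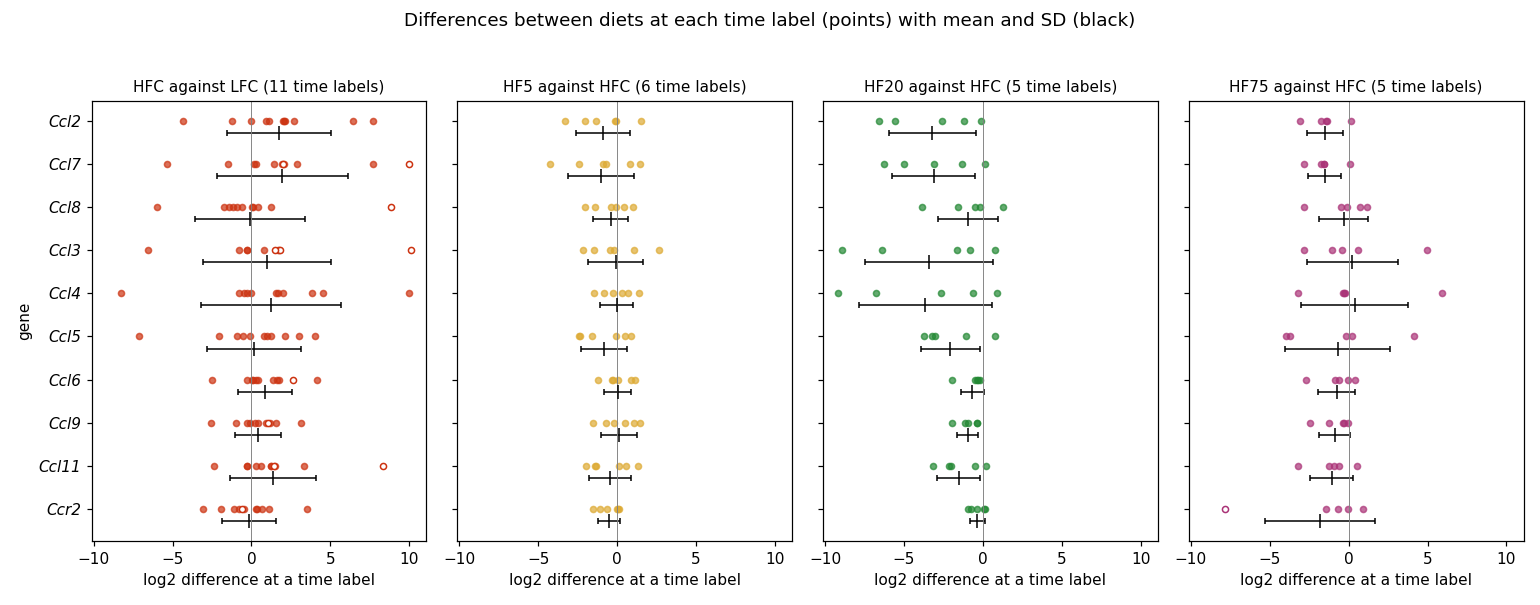
Difference between 2 diets at each time label (horizontal axis, log2) for each of the 10 genes (vertical axis), 1 panel per comparison. Points are single time labels, open where 1 of the arrays was not well above background, and black bars give the mean and SD. The 3 dose panels share the HFC arrays. In HF20 all 5 Ccl2 points lie under 0, from -6.57 to -0.15.

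The next question was whether Kal-1 on top of the high-fat diet altered the same genes. The 3 doses were each set against the HFC arrays of the same weeks and share those arrays, so their results are not independent. With 5 µg the mean difference for Ccl2 was -0.90 ± 0.57 (SE, 6 pairs), for Ccl7 -1.02 ± 0.70 and for Ccl5 -0.84 ± 0.49. The HF5 spot of Ccl2 at week 15 was saturated and entered this mean at its value. Ccl2 was lower in HF5 at 4 of the other 5 weeks, and the sign at week 15 is not known. Without week 9 the means of Ccl2 and Ccl7 were -0.41 and -0.37, and with array weights -1.68 and -1.93. Ccl6 and Ccl9 were 0.03 and 0.10, and 8 of 10 genes had a negative mean. The median was -0.43 against -0.00 over 29200 probes. By limma none of the 10 passed (adjusted p 0.965 to 0.995, with 0% of all probes), and none had an unadjusted p under 0.05, as against 1507 of all probes (5.16%), a count that was 8225 with normexp, none passing by limma. On the 3 pairs sharing a slide (weeks 12, 15 and 18) the Ccl2 differences were -1.34, -0.05 (the saturated spot) and 1.51, and in that fit 5 genes were higher, with Ccl2 at 0.04, Ccl11 at 0.19 and Ccl7 at 0.50.

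Several marker lists had lower means on the same HF5 arrays. The digestion-response sum was 7.61, 8.57, 5.04, 8.93, 8.93 and 9.34 at weeks 3, 6, 9, 12, 15 and 18, against 8.48, 9.10, 7.19, 8.89, 8.64 and 9.02 in HFC. Of its 11 genes 10 had a negative mean difference, with a median of -0.43, the same as that of the chemokine genes. For fibroblast markers it was 8 of 8 (median -0.44), for endothelial markers 6 of 6 (-0.46) and for macrophage markers 9 of 11 (-0.44). For adipocyte markers it was 7 of 8 (-0.49), for T cell markers 6 of 7 (-0.50) and for dendritic cell markers 6 of 6 (-0.29). By limma 4 macrophage, 2 dendritic cell, 1 fibroblast and 1 adipocyte marker had an unadjusted p under 0.05, against 5.16% of all probes. No endothelial, T cell or digestion-response gene did. Epithelial markers were higher for 5 of 5 (1.74). No marker passed the test, and their part in the chemokine differences was not tested.

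With 20 µg all 10 genes had a lower mean than HFC, although the second Ccr2 probe was at 0.08. The Ccl2 differences were -0.15, -2.57, -1.20, -6.57 and -5.55 at weeks 3, 6, 9, 12 and 15. For Ccl4 they were -0.61, -2.65, 0.88, -9.17 and -6.76, and for Ccl5 -1.09, -3.72, 0.76, -3.22 and -3.04. Weeks 12 and 15 held the widest gaps for Ccl2, Ccl7, Ccl3 and Ccl4. Ccl6, Ccl8 and Ccl9 had their widest gap at week 6 instead, at -1.99, -3.84 and -1.96.

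The mean HF20 minus HFC difference was -3.21 ± 0.99 (SE, 5 pairs) for Ccl2, -3.13 ± 0.93 for Ccl7, -3.66 ± 1.49 for Ccl4, -3.40 ± 1.44 for Ccl3 and -2.06 ± 0.68 for Ccl5. It was -1.54 ± 0.52 for Ccl11, -0.97 for Ccl8, -0.96 ± 0.30 for Ccl9, -0.66 for Ccl6 and -0.37 for Ccr2. The median was -1.80, against 0.08 over 30832 probes. By limma none of the 10 passed (adjusted p 0.406 to 0.502, with 0% of all probes). At an unadjusted p under 0.05 there were 6 of 10, Ccl7 (0.0137), Ccl2 (0.0158), Ccl9 (0.0165), Ccl5 (0.0212), Ccl11 (0.0223) and Ccl4 (0.0464), against 3648 of all probes (11.8%). The count over all probes was not steady: it was 10029 with normexp, which moved the median of all probes to -0.40. It was 5746 without week 3, 1505 without week 12 and 1056 without week 15, with no probe passing by limma in any of these. The exact sign-flip p for Ccl2 was 0.0625, the smallest that 5 pairs allow. Whichever week was left out, all 10 genes had a negative mean, and that of Ccl2 ran from -3.97 to -2.37. Without week 12 Ccl3 was -2.03 and Ccl4 -2.29, and without week 6 Ccl8 was -0.25 and Ccl6 -0.33. No pair of this comparison shares a slide, so a within-slide value cannot be given, and the week 3 pair was scanned on 2 dates.

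Other marker genes differed between the same arrays. In HF20 the digestion-response sum was 8.65, 7.92, 4.54, 3.42 and 6.48 at weeks 3, 6, 9, 12 and 15, and in HFC it was 8.48, 9.10, 7.19, 8.89 and 8.64. All 11 of its genes had a negative mean difference, with a median of -2.26, and 10 had an unadjusted p under 0.05, against 11.8% of all probes. The adipocyte sum was 6.60, 3.98, 8.24, 8.70 and 8.48 in HF20 and 6.20, 3.78, 8.02, 6.75 and 5.05 in HFC, and 8 of 8 adipocyte markers had a positive difference, with a median of 1.95. The macrophage sum was 3.92, 4.97, 4.59, 4.32 and 4.51 in HF20 and 4.31, 6.23, 4.99, 4.81 and 4.99 in HFC. The T cell sum was 3.95, 0.02, 0.53, -0.80 and 0.65 in HF20 and 4.31, 2.95, -0.35, 1.36 and 4.28 in HFC. All monocyte (6, median -0.93), neutrophil (7, -1.19), fibroblast (8, -0.60) and endothelial markers (6, -0.69) tested had a negative difference, and 3, 3, 3 and 0 of them an unadjusted p under 0.05. None of these markers passed the test, and their part in the chemokine differences was not tested. The titles of the LFC and HF20 arrays labelled week 12 name no week, unlike those of the other 3 diets.

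With 75 µg the Ccr2 ligands Ccl2 and Ccl7 were lower than HFC at 4 of 5 weeks. The Ccl2 differences were -1.46, -3.09, 0.14, -1.75 and -1.34 at weeks 3, 6, 9, 12 and 15, and those of Ccl7 were -1.59, -2.83, 0.10, -1.57 and -1.73. The means were -1.50 ± 0.44 (SE, 5 pairs) and -1.52 ± 0.41. Ccl3 and Ccl4 had means of 0.24 (-0.23 with normexp) and 0.37, which rested on week 9, when they were 4.95 and 5.95 higher in HF75. Without that week they were -0.93 and -1.02, and all 10 genes had a negative mean. Ccl9 was lower at 5 of 5 weeks (mean -0.88), Ccl11 at 4 (-1.08) and Ccl6 at 4 (-0.77), but without week 6 these means were -0.49, -0.56 and -0.29. Ccl5 and Ccl8 had means of -0.70 and -0.31. Without week 6 these 2 were 0.05 and 0.32, and 4 of 10 genes had a positive mean. Without week 15 Ccl5 was 0.12. The median of the 10 was -0.82, against -0.01 over all probes tested. The Ccr2 mean of -1.82 rested on week 15, when the HF75 level was at least 230.2-fold lower. Without that week it was -0.31, and the second Ccr2 probe was at -0.39.

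By limma none of the 10 genes passed in HF75 (adjusted p 0.168 for Ccl7, 0.206 for Ccl2 and up to 0.948), while 293 of 28913 probes did (1.01%), 234 of them higher and 59 lower. At an unadjusted p under 0.05 there were 2 of 10, Ccl7 (0.00750) and Ccl2 (0.0113), against 4208 of all probes (14.6%). With limma's array weights Ccl2 (adjusted p 0.0275) and Ccl7 (0.0155) passed, and over 13 alternatives their adjusted p ran up to 0.478 and 0.427. Array weights passed 1323 probes in all, 784 higher and 539 lower, and normexp gave 231 higher and 8 lower. Without pairing by week 1 probe passed, and without week 3 none did by limma, with 3191 at an unadjusted p under 0.05. Leaving out week 6 gave 8 probes, week 15 gave 35, week 12 gave 92 and week 9 gave 207. Only weeks 12 and 15 pair arrays of 1 scan date, and there Ccl2 was -1.75 and -1.34.

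Cell markers were read on the same HF75 arrays. The digestion-response sum was 8.44, 9.01, 8.41, 8.91 and 9.04 over weeks 3 to 15, and 7 of its 11 genes were higher than in HFC, with a median of 0.14. The macrophage sum was 3.60, 4.78, 3.79, 3.82 and 4.66, with Cd14 the brightest each time, and 10 of 11 macrophage markers were lower, with a median of -0.96 and 5 at an unadjusted p under 0.05. Of 8 fibroblast markers 6 were lower, with a median of -0.54 and 5 at an unadjusted p under 0.05, against 14.6% of all probes. Cx3cr1 was the marker not well above background at week 15. The adipocyte sum was 6.92, 5.49, 7.86, 6.72 and 7.17, with 4 of 8 markers higher. No marker passed the test, and their part was not tested.

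With the 3 doses pooled against HFC (weeks 3 to 18), all 10 genes had a negative mean. Ccl7 was at -1.64 ± 0.85, Ccl2 at -1.61 ± 0.82 and Ccl5 at -1.25 ± 0.68, and Ccl6 was closest to 0 at -0.42. On the same arrays 11 of 11 digestion-response genes were lower (median -0.81), as were 11 of 11 macrophage markers (-0.59), and 8 of 8 adipocyte markers were higher (0.37). None of these passed the test, and their part was not tested. For the 10 genes the median was -0.93 against 0.01 over 29043 probes. None of the 10 passed by limma (adjusted p 1.00), as with 0% of all probes, and none had an unadjusted p under 0.05, against 780 of all probes (2.69%). That count was 4488 with normexp, none passing by limma, and 3829 with array weights, where 11 passed. Without week 6 Ccl5 was at -0.82. With 1 week left out in turn, the means nearest 0 were -0.09 for Ccl6, -0.02 for Ccl8 and -0.15 for Ccl9. For Ccl3 and Ccl4 they were -0.19 and -0.22, and no gene had a positive mean. The doses were not tested against each other. By mean difference from HFC, Ccl2, Ccl7, Ccl3, Ccl4, Ccl5, Ccl8, Ccl9 and Ccl11 were lowest with 20 µg, so their means did not run in the order of the dose. Those of Ccl6 did, at 0.03, -0.66 and -0.77 with 5, 20 and 75 µg, and those of Ccr2 were -0.52, -0.37 and -1.82. Without week 6 the Ccl6 means were -0.33 with 20 µg and -0.29 with 75 µg, so its order rested on that week.

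The time course on the control diets was asked next, with weeks 3 to 18 as the late and days 1 to 14 with week 0 as the early arrays of LFC and HFC. All 10 means were higher late, from 0.14 for Ccl6 (-0.06 with quantile normalization) to 0.99 ± 0.52 (SE, 12 late and 10 early arrays) for Ccr2, with Ccl9 at 0.74 ± 0.45. The second Ccr2 probe was at 0.00, and without day 6 the first was at 0.61. Cell markers differed too: 7 of 8 adipocyte genes were lower late (median -2.28), as were 6 of 6 endothelial (-1.10) and 7 of 7 T cell genes (-0.55), and 8 of 11 macrophage genes were higher (0.52). At an unadjusted p under 0.05 there were 5, 1, 0 and 2 of them. None passed, and their part was not tested. For the 10 genes the median was 0.46, against -0.01 over 30263 probes. By limma none of the 10 passed (adjusted p 1.00), as with 0.00330% of all probes, and none had an unadjusted p under 0.05, against 1261 of all probes (4.17%). The 1 probe that passed was Igh, an immunoglobulin heavy chain gene (3.69, adjusted p 0.0482), which is named after its values were seen. The count was 142 with array weights, 25 without week 18, week 3 and day 14 (chosen after seeing the data), 4 without week 3 and 2 without week 12. By limma it was 0 with normexp, quantile normalization, no filter or the slide as a block (728 to 2222 probes at an unadjusted p under 0.05), and also when any of days 6, 10 and 14 or weeks 6, 9, 15 and 18 was left out (994 to 1533). This fit counts the LFC and HFC arrays of 1 time label as separate replicates. Without day 1, only 5 of 10 means were higher and Ccl2, Ccl7, Ccl8, Ccl6 and Ccl4 were -0.19, -0.32, -0.62, -0.13 and -0.02.

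Whether the diet difference itself changed with time was tested by a term for diet and period. The HFC minus LFC difference of Ccl7 averaged -0.45 over 5 early and 3.97 over 6 late time labels, that of Ccl2 0.08 and 3.18, and that of Ccl5 -1.62 and 1.60. Day 1, whose LFC and HFC arrays were scanned on different dates, gave the lowest early value for each of the 10 genes. Without it the early means were 0.78, 1.19 and -0.24. The late minus early change was 4.42 ± 1.87 (SE) for Ccl7, 3.10 ± 1.58 for Ccl2, 3.22 ± 1.38 for Ccl5, 3.43 ± 2.18 for Ccl4, 3.23 ± 1.69 for Ccl8 and 1.36 ± 0.94 for Ccr2. All 10 were positive, with a median of 3.16 against -0.50 over 29267 probes, but the second Ccr2 probe was at -0.66. None of the 10 passed by limma (adjusted p 0.807, with 0% of all probes). At an unadjusted p under 0.05 there were 2, Ccl7 (0.0338) and Ccl5 (0.0358), against 1244 of all probes (4.25%). With normexp the median of all probes was 0.74 instead of -0.50 and 5461 probes passed, 5366 of them higher, while the 10 genes had a median of 2.24 and none passed. With array weights Ccl7 was at 2.73 and Ccl2 at 2.01. Without day 1 all 10 were still positive, with a median of 1.60 and Ccl7 at 3.19. Ccl2, Ccl8, Ccl5, Ccl4 and Ccr2 were then at 1.99, 2.21, 1.84, 1.51 and 0.83. The lowest values with any 1 time label left out were 1.73 for Ccl8 and 0.74 for Ccr2. T cell markers had a median change of 3.79 (6 of 7 positive, 5 of 7 at an unadjusted p under 0.05), B cell markers 3.48 (5 of 5 positive), tissue digestion genes 1.69 (11 of 11) and fibroblast markers 1.54 (8 of 8). None passed, and their part was not tested.

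Across the arrays of all diets, the ligands fell into sets by their correlation. Correlations within single diets were not computed, so the part of diet in these sets was not tested. Ccl2 and Ccl7 had a Spearman rho of 0.96 over 38 arrays, and Ccl3 and Ccl4 of 0.94 over the 37 on which Ccl3 was measured. Between those pairs it was 0.79 to 0.83. Ccl6 and Ccl9 shared a rho of 0.84, and Ccl11 stood at 0.74 with Ccl7 and Ccl9. Ccl5 was apart, at 0.52 or less with every other member. Ccr2 had 0.05 with Ccl2, 0.10 with Ccl7, 0.09 with Ccl8 and its highest value, 0.50, with Ccl5. Without the LFC arrays of week 18, week 3 and day 14, Ccr2 had 0.19 with Ccl2, 0.26 with Ccl7 and 0.17 with Ccl8. These arrays share diets, time labels and slides, and the values are descriptions.

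The genes whose course was most like each member were sought among 20155 genes that 50% or more of the arrays showed well above background. For Ccl2 and Ccl7, besides each other, they were Cxcl1, a neutrophil attractant (rho 0.942 and 0.961), and Metrnl, which encodes a secreted protein (0.921 and 0.942). For Ccl3 they were the neutrophil attractant Cxcl2 (0.942), Ccl4 (0.940) and the chemerin-binding receptor gene Ccrl2 (0.930), and for Ccl4 they were Ccl3, Ccrl2 (0.922) and interferon beta, Ifnb1 (0.901). For Ccl5 they were genes of cytotoxic lymphocytes, Klrd1 (0.935), Cd7 (0.918) and Fasl (0.915).

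Ccl6 was most like Ccl9 (0.837), Ugdh (0.801) and the eotaxin gene Ccl24 (0.732), and Ccl9 most like Ccl6, Gm11428 (0.810) and galectin 3, Lgals3 (0.786). Ccl11 was most like Retnla (0.83), Vim (0.803) and 2300002D11Rik (0.802), and Ccr2 most like the inflammasome genes Casp1 (0.765) and Naip2 (0.720) and the lymphocyte receptor gene Cd244 (0.718). Ccl8 had the weakest likeness, with Serpinb6a (0.656), Pla2r1 (0.654) and Cadm3 (0.645). Of these 30 places, 18 to 24 were held by the same genes when arrays were left out or quantile normalization was used. None of the named genes passed the adjusted p in any comparison.

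The levels were also set against cell markers. The digestion-response sum had a Spearman rho of 0.86 with Ccl2, 0.87 with Ccl7, 0.80 with Ccl4 and 0.74 with Ccl3 over 38 arrays (37 for Ccl3). With Ccl6 it was 0.21 and with Ccr2 -0.06. The T cell sum had 0.88 and the B cell sum 0.82 with Ccl5. The macrophage sum had its highest value, 0.63, with Ccl9 and stood at 0.55 with Ccl2, 0.57 with Ccl3 and 0.53 with Ccl4. The epithelial sum stood higher with these last 3 genes, at 0.59, 0.60 and 0.61, but at 0.10 with Ccl9. The adipocyte sum was negative with Ccl3 (-0.66), Ccl4 (-0.61) and Ccl2 (-0.47). The eosinophil sum, led by Ear1, had 0.63 with Ccr2 and 0.17 with Ccl11. Without the LFC arrays of week 18, week 3 and day 14 the values were 0.84 for Ccl2, 0.85 for Ccl7, 0.75 for Ccl4 and 0.70 for Ccl3 with digestion genes, 0.90 for Ccl5 with T cells, 0.58 for Ccl9 with macrophages and 0.56 for Ccr2 with eosinophils. Wider shifts were seen for Ccl11 with eosinophils, at 0.41, and for the adipocyte sum with Ccl2 (-0.71), Ccl3 (-0.77) and Ccl4 (-0.76).

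**Figure D3:**
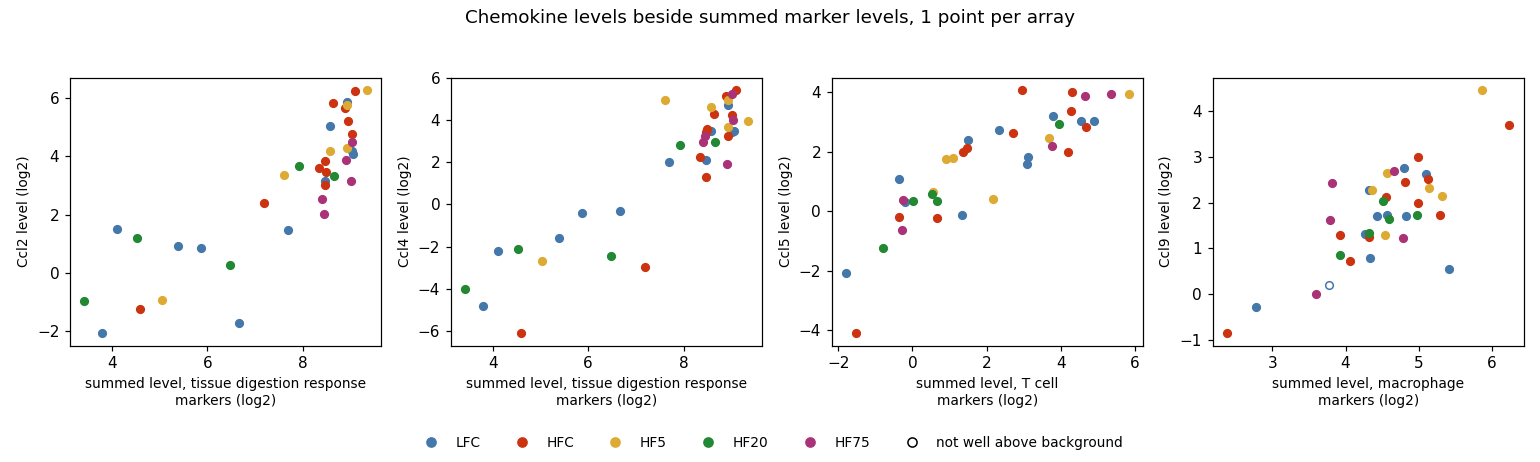
Level of 4 chemokine genes (vertical axes, log2) against the summed level of a marker list (horizontal axes, log2), 1 point per array, coloured by diet. The open point was not well above background. Ccl2 and Ccl4 are low where the digestion-response sum is low (rho 0.86 and 0.80 over 38 arrays), Ccl5 goes with the T cell sum (0.88) and Ccl9 with the macrophage sum (0.63).

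Other genes of the pathway were read as lists. NF-kappaB genes, which control many CC ligands, include the inhibitors Nfkbia and Tnfaip3. In HF20 minus HFC all 11 were negative, with a median of -1.09 against 0.08 over all probes, and 9 had an unadjusted p under 0.05 (11.8% of all probes did), such as Tnfaip3 at -2.56 (0.0168) and Nfkb1 at -0.86 (0.0114). In HFC minus LFC 10 of 11 were positive, with a median of 0.51. In HF75 7 of 11 were positive, with a median of 0.16, and in HF5 8 of 11, with a median of 0.13. Their summed level, led by Nfkbia, was 7.13, 5.89, 4.93, 4.64 and 5.18 over weeks 3 to 15 in HF20, and between 7.01 and 7.49 in HF75. Over the same weeks it was 7.03, 7.42, 5.07, 6.80 and 7.06 in HFC. None of the 11 passed the adjusted p in any comparison.

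Inflammatory cytokines in HF20 were lower than in HFC for 10 of 11 genes, with a median of -1.96, among them Il6 (-4.58), Il1b (-3.43) and Tnf (-2.67). In HFC minus LFC 7 of 11 were positive, with a median of 0.53, in HF75 4 of 11, with a median of -0.16, and in HF5 6 of 11, with a median of 0.09. Their summed level had a rho of 0.83 to 0.86 with Ccl2, Ccl7, Ccl3 and Ccl4 and of 0.17 with Ccr2. Again none passed the adjusted p.

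Of 12 other CC ligands on the array, 10 were tested in HF20 and 6 were negative, with a median of -0.94. They included Ccl21c (-3.49) and Ccl19 (-1.51), which guide lymphocytes to lymph nodes through Ccr7, and Ccl12 (-1.03), a mouse relative of Ccl2. In HFC minus LFC 4 of 10 were positive, with a median of -0.35, and Ccl24 was at 1.01. In HF5 3 of 8 were positive, with a median of -0.11. In HF75 5 of 9 were positive, with a median of 0.04, Ccl19 at 1.20 and Ccl24 at -0.83. Of 15 other chemokine receptors, 11 were tested. In HF20 9 of 11 were negative, with a median of -0.98, among them Ccr7 (-2.93) and the duffy receptor Darc (-1.83). In HFC minus LFC 7 of 11 were positive, with a median of 0.16, in HF75 6 of 11, with a median of 0.01, and in HF5 2 of 11, with a median of -0.23. The decoy receptor Cxcr7 was at 1.65 in HFC minus LFC, -1.18 in HF20 and -0.74 in HF75. No ligand or receptor of these lists passed the adjusted p.

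Promoter sequences were read because members of this family moved together from array to array. The table of RefSeq promoters used here (build GRCm38.p6) held 5 of the 10 genes, Ccl8, Ccl3, Ccl6, Ccl9 and Ccr2. Ccl2, Ccl7, Ccl4, Ccl5 and Ccl11 had no entry in this table. In the 250 bases before each start, 5 motifs were searched on both strands, and the share of all 32851 promoters holding each is given beside it. They were GGGA and CC with any 4 bases between for NF-kappaB (17.6%), TGANTCA for AP-1 (6.75%), TTGCNNAA for C/EBP (9.56%), GAGGAA for PU.1 (23.3%) and TATAAA for a TATA box (12.4%). A match describes letters only and does not show binding.

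Ccl3, which swung widely, and Ccl6 and Ccl9, which varied little, are shown as read on their own strand, with matches in capitals. All 3 lie on the minus strand of chromosome 11. The Ccl3 window is chr11:83649379-83649628, with 1 match, PU.1 on the opposite strand, beginning 33 bases before the start. The Ccl6 window, chr11:83593088-83593337, held none of the 5 motifs. The Ccl9 window is chr11:83578637-83578886, with AP-1 at 53 bases and TATAAA at 224, 94 and 92 bases before the start, the first 2 of these on the opposite strand and the last 2 overlapping.
Ccl3: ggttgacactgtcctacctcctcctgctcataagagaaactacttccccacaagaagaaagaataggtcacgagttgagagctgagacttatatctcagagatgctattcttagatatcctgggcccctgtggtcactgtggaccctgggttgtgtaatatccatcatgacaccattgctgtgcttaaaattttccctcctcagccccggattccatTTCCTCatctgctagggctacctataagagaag
Ccl6: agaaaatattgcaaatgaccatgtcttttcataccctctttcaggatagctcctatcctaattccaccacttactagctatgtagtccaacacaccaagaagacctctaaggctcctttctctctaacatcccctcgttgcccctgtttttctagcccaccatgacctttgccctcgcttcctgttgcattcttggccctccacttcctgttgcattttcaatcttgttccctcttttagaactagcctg
Ccl9: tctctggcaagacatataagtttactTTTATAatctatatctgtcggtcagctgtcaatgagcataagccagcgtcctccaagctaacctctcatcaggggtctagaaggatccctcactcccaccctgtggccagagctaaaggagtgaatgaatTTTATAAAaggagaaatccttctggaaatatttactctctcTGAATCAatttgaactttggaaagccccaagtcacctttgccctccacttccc
In the windows not shown, Ccl8 (chr11:82114935-82115184, plus strand) held PU.1 at 240 bases on the opposite strand and TATAAA at 32 bases, and Ccr2 (chr9:124101933-124102182, plus strand) held none. No window of the 5 held the NF-kappaB or C/EBP letters.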

How the data were processed

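RNA from mouse subcutaneous SVCs was measured on 1-colour Agilent arrays, and 38 of the 40 arrays were used. Left out were 2 arrays of week 18 whose title and diet label name different doses (20 and 75 µg). The deposited value is a background-subtracted spot intensity, made by the authors with Agilent Feature Extraction, version 9.1 per the labels and 10.5.1.1 per the file headers. The gene symbol of each probe came from the fold change table that the authors deposited, and its 40 fold change columns were not used. Outlier spots were dropped, spots of a probe were averaged and log2 intensities were shifted to the array's 75th percentile. Probes well above background on 50% of the arrays of either side were tested. Median signal over background ran from 1.53 (LFC week 3) to 55.0 (LFC day 14, the array with 9104 outlier spots). The number of arrays limits the precision.

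Models were fitted in R 4.3.3 by limma 3.58.1, the time label being a block (diet for late against early), and p was adjusted by Benjamini-Hochberg over all probes tested, with a threshold of 0.05. The summaries and plots came from numpy 2.4.6, matplotlib 3.10.9 and pandas 2.3.3 under Python 3.11.15. A gene with several probes is read from the one of highest mean level, and the named genes are the 10 members and the 3 genes of highest Spearman rho with each. A summed level is the log2 of the summed unlogged levels of a marker list. The pairing was checked by fits without it. Single genes also had a two-sided exact permutation test that flips the signs of the pair differences. Alternatives were normexp (offset 50), quantile normalization, no floor, no filter, outlier spots kept, array weights, time labels left out, slide and scan date blocks, and the methods' test paired by time label. The fit was tested on simulated data. The members and lists were chosen with earlier results of these data known. The values of 1 gene are not reported here.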

Additional observations from a re-analysis of the deposited data

Results flagged for a closer look

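Single arrays lay far from the rest of their diet in 4 of 31 groups of 5 or 6 arrays tested. The groups share arrays, so they are not independent. In HF5 the week 9 array was the lowest of 6 for Ccl3, at -4.98, and for Ccl4, at -2.70. The other week 9 arrays, except that of HF75, were low for both genes too, at -3.78 to -4.54 for Ccl3 and -2.11 to -2.98 for Ccl4. The HF5 array of week 15 was the highest of 6 for Ccl6, at 4.93, and its macrophage sum of 5.86 was the highest of that diet. The HF75 array of week 15 was the lowest of 5 for Ccr2, at -7.32, a level not well above background, with the second Ccr2 probe also not well above background there. No cause was tested for these values.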

How the results depend on the processing

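Of 632 differences of single members under other settings, 607 kept their direction and side of the threshold, 23 changed sign and 2 passed it; of 550 with a time label left out, 41 changed sign and none passed. In HFC minus LFC, Ccl8 was 0.0539 with normexp, 0.0231 without week 3 and day 14 and 0.0372 with scan date as a random block. Ccr2 was 0.47 with array weights and 0.0606 without week 18, week 3 and day 14 (a setting chosen after seeing the data). Ccl5 was -0.15 without week 3 and day 14, -0.33 without all 3 and -0.46 in same-slide pairs, where Ccl9 was -0.0853. In HF5, array weights gave Ccl9 -0.16, Ccl6 -0.11 and Ccl8 0.0693, leaving out week 3 gave Ccl9 -0.0914 and Ccl6 -0.19, and same-slide pairs gave Ccl2 0.0394, Ccl11 0.19 and Ccl7 0.50. In HF75, Ccl3 was -0.23 with normexp, and array weights gave Ccl3 -0.60, Ccl4 -0.47, Ccl2 -1.55 (passing) and Ccl7 -1.66 (passing). In late minus early, Ccl6 was -0.0621 with quantile normalization, Ccl8 -0.28 without week 3 and day 14, and Ccl5 -0.0111 without week 18, week 3 and day 14.

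The HF75 count of 293 was 145 by limma without a filter, where 12010 of 40628 probes had an unadjusted p under 0.05. It was 1323 with array weights, 0 by limma without week 3 (3191 at an unadjusted p under 0.05) and 1 without pairing. With any dose, 11 probes passed with array weights. The late minus early count of 1 was 0 with normexp, quantile normalization, no filter, a slide block or without week 3 and day 14 (unadjusted 728, 2222, 1138, 1045 and 2582), 142 with array weights and 25 without week 18, week 3 and day 14. The change of the diet difference passed for 5461 probes with normexp, 5366 higher and 95 lower, where the median of all probes was 0.74. Normexp moved that median to -0.30 in HF5, -0.40 in HF20, -0.24 in HF75, -0.27 with any dose and -0.22 in late minus early, where quantile normalization gave 0.25, and no filter gave -0.31 in HFC minus LFC and 0.17 in HF75.

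With 1 time label left out in turn, the ranges were as follows. In HFC minus LFC, Ccr2 ran from -0.55 to 0.10, Ccl8 from -0.99 to 0.49, Ccl5 from -0.25 to 0.87 and Ccl3 from -0.0494 to 1.81. In HF5, Ccl9 ran from -0.18 to 0.43, Ccl6 from -0.19 to 0.29, Ccl3 from -0.64 to 0.32 and Ccl4 from -0.32 to 0.25. In HF75, Ccl8 ran from -0.69 to 0.32, Ccl5 from -1.91 to 0.12, Ccl3 from -0.93 to 1.02, Ccl4 from -1.02 to 1.28 and the count from 0 to 207. In late minus early, Ccl2 ran from -0.26 to 0.73, Ccl7 from -0.44 to 0.84, Ccl6 from -0.13 to 0.49, Ccl8 from -0.62 to 0.95, Ccl4 from -0.0205 to 1.66, Ccl3 from -0.14 to 1.43, Ccl11 from -0.11 to 1.01 and the count from 0 to 4. The cause was not tested. Signal over background limits the dim LFC array of week 3 most (1.53), where 6 of the 10 genes were not well above background.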

Other observations

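Among other marker lists, 5 of 5 epithelial genes were higher than HFC in HF75, with a median of 1.88. Mast cell genes were lower in HF75 for 5 of 5 tested, with a median of -1.27. None of these genes passed the adjusted p by limma, and at an unadjusted p under 0.05 there were 2 of 5 in each list, where all probes had 14.6%.

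The 2 week 18 arrays whose labels conflict on the dose of Kal-1 belong to no comparison. On the array with 21710 outlier spots, the level was 2.56 for Ccl2, 0.84 for Ccl7, -0.96 for Ccl8, -0.82 for Ccl3, 1.02 for Ccl4, 0.05 for Ccl5, 0.37 for Ccl6, -0.49 for Ccl9, 0.11 for Ccl11 and -0.33 for Ccr2. On the other array it was 4.51 for Ccl2, 2.71 for Ccl7, 2.90 for Ccl8, 2.0 for Ccl3, 3.87 for Ccl4, 1.82 for Ccl5, 3.38 for Ccl6, 1.71 for Ccl9, 2.50 for Ccl11 and -0.82 for Ccr2. All 10 genes were well above background on both.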
